A study of Mus musculus with 12 samples.

Results

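H3K27ac, acetylation of histone H3 at lysine 27, marks active promoters and enhancers, and its peaks far from gene starts are commonly read as active enhancers. The regions described here are distal H3K27ac peaks called in mouse embryonic stem (ES) cells after GW3965 and in none of the other 3 H3K27ac peak lists. GW3965 is a synthetic agonist of the liver X receptors (LXR). A peak was a member if it lay more than 1000 bp from the nearest transcription start site (TSS), was not annotated to an LTR element, and shared no base with a peak of the control, LG268 or RA H3K27ac list. There were 1512 such peaks among the 17759 peaks of the GW3965 list, and the series' 12 lists held 76731 peaks. The members were chosen by the presence and absence of called peaks in the 4 lists, so their absence elsewhere is a description and not a finding.

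LXR binds DNA as a heterodimer with the retinoid X receptor (RXR), typically at direct repeats of a hexamer spaced by 4 bases. Without ligand the dimer can sit on DNA with corepressors, and an agonist exchanges them for coactivators that include histone acetyltransferases. The best known LXR target genes act in cholesterol efflux and fatty acid synthesis.

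The cells were wild type E14 mouse ES cells, grown without feeders on gelatin with LIF and serum. The series mapped H3K27ac in 4 groups with 1 library each: DMSO vehicle control, and 24 h with 1 µM GW3965, with 1 µM LG268 (an RXR agonist) or with 1 µM all-trans retinoic acid (RA). RXR was mapped in the same 4 groups with 1 library each. It was also mapped in 2 libraries at day 8 and 2 at day 16, after embryoid bodies of these cells had been driven to neural fates with RA. Chromatin was crosslinked with disuccinimidyl glutarate and formaldehyde in all groups, E14 is 1 line, and the labels do not say which cultures gave the 2 libraries of a day.

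The 4 H3K27ac lists held 21418 peaks in the control, 17759 with GW3965, 12472 with LG268 and 14958 with RA. The RXR lists held 1089, 940, 2089 and 1970 peaks in the same order, 1154 and 2044 at day 8, and 429 and 409 at day 16. No read totals were in the files, so the depth behind each list is unknown, and a peak missing from a list may lie just under its calling threshold. With 1 library per group no difference between treatments has a replicate check. A peak present in 1 list can stand for more acetylated cells or for more acetylation per cell, which cannot be told apart. Of 26 pluripotency genes, 14 had an H3K27ac peak within 1000 bp of the TSS in the control and 13 with GW3965. Pou5f1 had 1 such promoter peak in both lists and Sox2 had 2 in both, while Nanog had none in either list and 2 distal peaks in each. Of 13 fibroblast and feeder genes, 3 had a promoter peak in the control and with GW3965, namely Twist1 (2 and 1), Fbn1 (1 and 2) and Pdgfra (1 and 1). Fbn1 also had 1 distal peak in the control and Snai2 had 1 with GW3965, while the collagen genes Col1a1, Col1a2 and Col3a1 had no peak in any of the 4 lists.

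Sequence was at hand only around RefSeq gene starts, as windows from 250 bases before to 50 bases after a start on build GRCm38.p6. Only 29 members (1.92%) overlapped such a window, against 284 of the other distal non-LTR peaks of the GW3965 list (7.15%). The 36 windows they overlapped belonged to 29 symbols, of which 21 were predicted genes with Gm or LOC names. Each of the following windows was overlapped by a member and is written 5′ to 3′ on the gene's strand, with the bases inside the member in capitals. In the Lexis1 and Gm38485 windows the member lay before the start without covering it, at bases 1 to 39 and 1 to 198. Lexis1, a long noncoding RNA known in mouse liver as an LXR target, is shown because its start lay beside one of the strongest RXR peaks of the GW3965 list (chr4:53218632-53218931, minus strand). Gm34150 is shown because the member covered its whole window (chr15:36374102-36374401, plus strand). Csrnp3, a nuclear protein gene, is shown because the LG268 RXR list held a peak that overlapped the window (chr2:65931615-65931914, plus strand). Gm38485, next to the Foxo3 start, is shown because it was the only window of the 36 with a match to the LXR motif (chr10:42274760-42275059, minus strand).
Lexis1: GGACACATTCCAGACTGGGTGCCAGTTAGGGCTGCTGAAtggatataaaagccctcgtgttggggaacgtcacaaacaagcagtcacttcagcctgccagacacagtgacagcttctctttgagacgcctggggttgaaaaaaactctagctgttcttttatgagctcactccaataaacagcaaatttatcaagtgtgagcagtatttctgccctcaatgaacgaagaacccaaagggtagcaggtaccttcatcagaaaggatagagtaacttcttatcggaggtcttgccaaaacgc
Gm34150: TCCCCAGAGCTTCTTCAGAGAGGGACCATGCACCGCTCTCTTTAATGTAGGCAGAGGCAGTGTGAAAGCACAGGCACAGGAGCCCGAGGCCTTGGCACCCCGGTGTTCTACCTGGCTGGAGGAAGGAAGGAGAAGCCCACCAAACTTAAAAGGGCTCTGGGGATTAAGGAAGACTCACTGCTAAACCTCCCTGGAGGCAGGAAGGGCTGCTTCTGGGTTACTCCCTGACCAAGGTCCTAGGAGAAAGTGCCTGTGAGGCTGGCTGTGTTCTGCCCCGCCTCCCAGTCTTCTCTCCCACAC
Csrnp3: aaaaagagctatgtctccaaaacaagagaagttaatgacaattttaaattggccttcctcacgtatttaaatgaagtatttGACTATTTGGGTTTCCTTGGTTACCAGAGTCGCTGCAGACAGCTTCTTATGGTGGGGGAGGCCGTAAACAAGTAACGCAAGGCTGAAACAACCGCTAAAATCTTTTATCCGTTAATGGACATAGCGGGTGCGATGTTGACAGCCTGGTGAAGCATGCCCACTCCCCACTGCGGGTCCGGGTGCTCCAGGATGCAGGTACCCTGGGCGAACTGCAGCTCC
Gm38485: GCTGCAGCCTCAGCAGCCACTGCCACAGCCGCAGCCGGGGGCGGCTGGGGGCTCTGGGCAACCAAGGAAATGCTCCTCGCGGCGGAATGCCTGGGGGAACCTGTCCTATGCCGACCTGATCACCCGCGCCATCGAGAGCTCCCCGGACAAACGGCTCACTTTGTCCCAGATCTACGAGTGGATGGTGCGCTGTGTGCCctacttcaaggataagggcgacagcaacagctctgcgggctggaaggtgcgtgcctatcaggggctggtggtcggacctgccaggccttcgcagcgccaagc

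The motif searched was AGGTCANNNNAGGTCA on both strands with up to 2 mismatches outside the N bases. It matched 1 of the 36 windows (2.78%), against 993 of all 32851 RefSeq windows (3.02%). In the Gm38485 window the match lay at positions 102 to 117 counted from the first printed base, on the opposite strand with 2 mismatches, inside the capitals. The exact half-site AGGTCA, which a DR4 match can contain, was in 4 of the 36 windows (11.1%), those of Gm15524, Sh3tc1, Gm52185 and Gm11963, and in 5340 of all windows (16.3%). Only in the Gm15524 window did the half-site lie inside the member, at bases 148 to 153. In the windows of Sh3tc1, Gm52185 and Gm11963 it lay outside the member. A match is a run of letters and not a bound site. The member in the Lexis1 window scored 5.51, and that over Gm34150 scored 7.33 and lay -91110 bp from the TSS of Rnf19a. The member over Csrnp3 scored 5.85, and that in the Gm38485 window scored 4.81 and lay 1747 bp downstream of the Foxo3 TSS.

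The members were 27.6% of the 5483 distal non-LTR peaks of the GW3965 list. The same rule turned around gave 2963 of 7313 distal peaks called in the control alone (40.5%), 754 of 3662 with RA alone (20.6%) and 413 of 2671 with LG268 alone (15.5%). The order of these shares was the order of the list lengths, so the largest set of peaks found in 1 list belonged to the control and not to a ligand. Within the GW3965 list, 587 of 11912 peaks within 1000 bp of a TSS overlapped no other list (4.93%), as did 159 of 364 distal LTR peaks (43.7%) and 2258 of all 17759 peaks (12.7%). Of the 5483 distal peaks, 3559 overlapped a control peak, and of the 1924 that did not, 189 overlapped an LG268 peak and 277 an RA peak.

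The members were weak peaks. Each peak carries a score that the authors gave it, read here only within its own list. It ran from 1.4 to 12.0 over the members with a median of 4.33 and quartiles of 3.42 and 5.33, while the list reached 146 with a median of 8.17. The highest member stood at rank 5803 of 17759 and the median member at rank 14951. Of the 1512 members, 42 (2.78%) scored above the median of the list and 1073 (71.0%) were in the lowest 25% of it. The median member stood 84.2% of the way down the list, against 65.8% for the other distal peaks and 37.4% for peaks near a TSS. Low rank was shared by the sets found alone in the control (81.6%), with LG268 (88.2%) and with RA (84.0%).

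The members were also narrow. Their median width was 270 bp, against 362 bp for the other distal peaks, and they covered 454 kb in all. Low median width was shared by the sets found alone in the control (260 bp), with LG268 (249 bp) and with RA (258 bp). The smallest width among members, 240 bp, was that of 437 members (28.9%, exact 95% interval 26.6% to 31.3%) and of 367 other distal peaks (9.24%). Intervals on shares cover counting error only and treat peaks as independent.

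**Figure D1:**
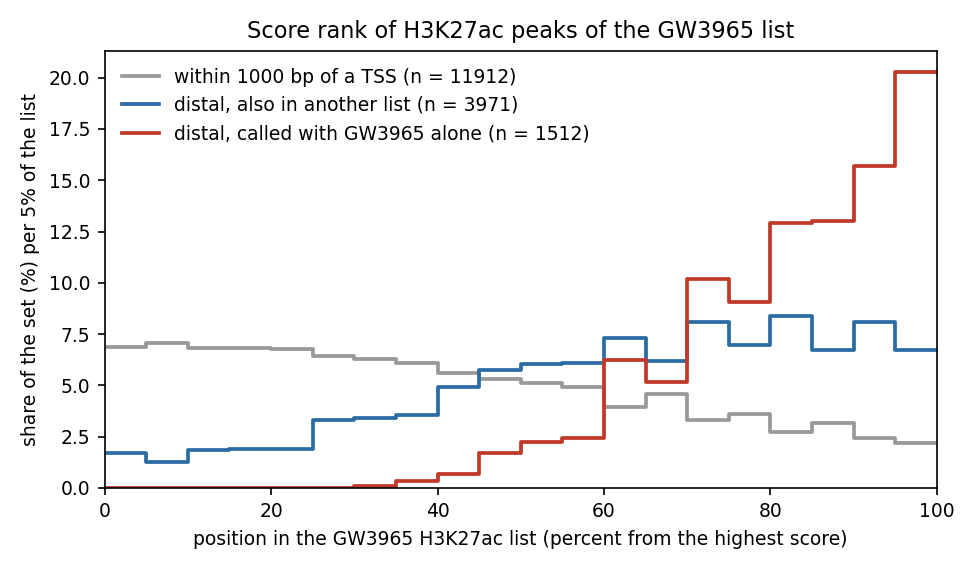
Position of peaks in the GW3965 H3K27ac list by score, from the strongest peak at the left, as the percentage of each set (members, other distal peaks, peaks near a TSS) per 5% of the list. Members gather at the right, with 71.0% in the lowest 25% of the list and a median position of 84.2%, while peaks near a TSS have a median position of 37.4%.

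The 15 highest members scored 9.40 to 11.98. The highest lay in an L1 element 29980 bp from Vmn1r15, a vomeronasal receptor gene. A further 5 of the 15 lay in L1Md_T elements, next to Col22a1 (10.79), Gpr158 (10.79, intron 4 of 10), Mir466 (9.64), Lrp1b (9.64) and Krtap21-1 (9.60), which are genes of a collagen, a G protein-coupled receptor, a microRNA, an LDL receptor relative and a hair protein. Outside L1 the highest was next to the microRNA gene Mir130a (10.80), and its nearest peak in another list was 218 bp away. Gm19705 (10.48), 4933407K13Rik (10.43) and Lrmp (9.96) followed. The member at -1053 bp from Arid1a, a subunit gene of the SWI/SNF remodelling complex, scored 9.74 and lay in a CpG island. Fdft1, which encodes squalene synthase of the sterol pathway, had a member in intron 1 of 7 (chr14:63164517-63164839, score 9.68, 13115 bp from the TSS), and the nearest peak of any other list was 13321 bp away. Agpat4, a lysophospholipid acyltransferase gene, had one of the same score -88292 bp from its TSS, in an intron of another transcript. Hgsnat, a lysosomal acetyltransferase gene, had one in intron 4 of 17 (9.49), and Sesn2, a stress response gene, one in a SINE at -5487 bp (9.40). Of the 15, 5 lay within 1000 bp of a peak of another list, those at Mir130a, Col22a1, 4933407K13Rik, Krtap21-1 and Sesn2. None of the 15 had a GW3965 RXR peak within 1 kb.

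In location, 855 members (56.5%) were intergenic and 585 (38.7%, 36.2% to 41.2%) were in introns. Of the other distal peaks, 61.6% were intergenic and 32.1% (30.7% to 33.6%) were in introns. A higher intron share than in the shared peaks was common to all sets found in 1 list. It was 38.4% against 31.9% in the control, 45.8% against 32.8% with LG268 and 38.7% against 31.5% with RA. The remaining members were 34 in exons, 19 at transcript ends, 14 in 3′ UTRs, 3 in noncoding transcripts and 2 in 5′ UTRs. The median distance to the TSS was 35564 bp, with quartiles of 12636 and 93245 bp and a maximum of 1614839 bp, and 658 members lay upstream of their gene and 854 downstream of its start. Only 136 members (8.99%) were within 5 kb, against 18.4% of the other distal peaks, and 355 (23.5% against 20.5%) were beyond 100 kb. A larger median distance than in the shared peaks was common to all sets found in 1 list. It was 35564 against 26225 bp with GW3965 and 32737 against 26585 bp in the control. With LG268 it was 32834 against 20272 bp and with RA 30052 against 23516 bp. The members just inside the distance threshold belonged to Cdk16 (-1010 bp, score 3.30), Ccdc9 (1022 bp, 5.22) and Spred1 (-1028 bp, 3.0). Those just outside it were Raly (997 bp, 7.04), 9130230L23Rik (-992 bp, 4.39) and Tbl2 (-991 bp, 3.69).

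CpG islands held few members. They held 43 members (2.84%, 2.07% to 3.81%) and 673 of the other distal peaks (16.9%, 15.8% to 18.2%). The gap was also present within the lowest 25% of the list, where 2.52% of members and 6.90% of the other distal peaks were in CpG islands. Scores were not matched inside it: the last 5% of the list held 307 of those 1073 members and 266 of those 1464 other distal peaks. Low CpG shares were common to all sets found in 1 list, at 5.74% in the control, 1.94% with LG268 and 4.77% with RA. SINE elements held 76 members (5.03%) and 2.22% of the other distal peaks. The share was also higher than in the shared peaks in the other sets found in 1 list. It was 4.42% against 2.34% in the control, 3.39% against 2.30% with LG268 and 2.79% against 2.30% with RA.

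L1 elements are the autonomous retrotransposons that make up much of mammalian repeat sequence, and L1Md_T is a young mouse subfamily. They held 385 members (25.5%, 23.3% to 27.7%), against a share of 21.9% over all 5483 distal non-LTR peaks of the list and 814 (20.5%, 19.3% to 21.8%) of those outside the set. Of the 385, 313 were in L1Md_T, 25 in L1Md_Gf and 9 in L1Md_A. Only 4 peaks near a TSS (0.0336%) were in L1. Among distal peaks as a whole, L1Md_T held 1314 in the control, 1025 with GW3965, 451 with RA and 240 with LG268, so the control list held more of them than the GW3965 list.

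The order of the L1 shares depended on score. Among peaks in the third 25% of the list, 32.7% of members (28.1% to 37.6%) and 23.3% of other distal peaks (21.1% to 25.7%) were in L1. In the lowest 25% the order was the opposite, with 22.5% of members (20.0% to 25.1%) and 29.8% of other distal peaks (27.5% to 32.3%). The set found in the control alone had 23.0% in L1 (21.5% to 24.5%), that with RA 16.8% (14.2% to 19.7%) and that with LG268 15.3% (11.9% to 19.1%). A higher L1 share than in the shared peaks was common to all sets found in 1 list. The shared peaks had 20.6% (19.4% to 21.9%) in the control, 13.7% (12.5% to 15.0%) with RA and 10.5% (9.30% to 11.9%) with LG268. Members in L1 lay far from genes, at a median of 129169 bp from the TSS with 74.3% intergenic, and 1 of them had a GW3965 RXR peak within 1 kb. Copies of young L1 elements are nearly alike, and how reads that match several copies were placed is not given in the sources used here.

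Many members stood beside a peak of another list without touching it. For 398 (26.3%, 24.1% to 28.6%) the nearest peak of another list was at most 1000 bp away: 336 beside a control peak, 117 beside an LG268 peak and 168 beside an RA peak, with 69 beside peaks of all the other lists. A further 215 were 1 to 10 kb away and 899 more than 10 kb away, with a median gap of 16107 bp. The share within 1000 bp was 22.8% in the set found in the control alone, 25.7% with LG268 and 28.9% with RA. At the edge of the overlap rule, 10 members lay within 10 bp of another list's peak and 11 peaks were left out for an overlap of at most 10 bp. Within the GW3965 list itself, 152 members lay within 1000 bp of a peak that was not a member. Members that were neither in L1 nor within 1000 bp of another list's peak numbered 835, and 45.5% of these were in introns.

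**Figure D2:**
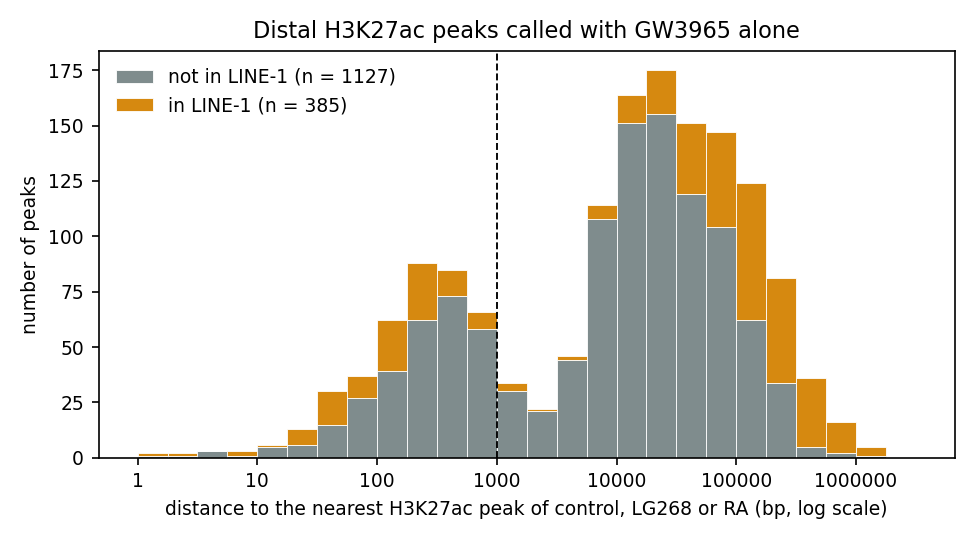
Distance from each member to the nearest H3K27ac peak of the control, LG268 or RA list on a log scale in bp, as stacked bars of peak numbers for members in L1 and not in L1, with a dashed line at 1000 bp. There are 398 members at most 1000 bp away, 215 between 1 and 10 kb and 899 farther than 10 kb.

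RXR peaks were uncommon at the members. A GW3965 RXR peak lay within 1 kb of 41 members (2.71%, 1.95% to 3.66%), against 3.87% of all distal non-LTR peaks of the list and 171 (4.31%, 3.70% to 4.98%) of those outside the set. Over all H3K27ac peaks of the list, the share was 2.03%. Within the third and within the lowest 25% of the list the shares were close and their intervals overlapped, though scores were not matched inside these ranges. In the lowest 25% of the list, 2.52% of members (1.66% to 3.64%) and 2.66% of other distal peaks (1.90% to 3.62%) had RXR, and in the third 25% the shares were 3.27% and 3.52%. The other RXR lists gave the same order, with 39 members (2.58%) beside control RXR peaks, 74 (4.89%) beside LG268 peaks and 56 (3.70%) beside RA peaks, against 4.78%, 9.19% and 7.28% of the other distal peaks. At day 8 the libraries gave 30 and 36 members (1.98% and 2.38%), against 3.5% and 5.72% of the other distal peaks. At day 16 they gave 16 and 14 members (1.06% and 0.926%), against 2.77% and 2.64%.

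Sets found in 1 list differed in their own RXR. With RA alone, 91 of 754 peaks (12.1%, 9.83% to 14.6%) had an RA RXR peak within 1 kb, against 9.35% (8.32% to 10.5%) of the RA peaks shared with other lists. With LG268 alone, 20 of 413 had an LG268 RXR peak (4.84%, 2.98% to 7.38%), against 12.0% (10.6% to 13.4%) of the LG268 peaks shared with other lists. In the control alone, 53 of 2963 had a control RXR peak (1.79%, 1.34% to 2.33%), against 4.83% (4.21% to 5.51%) of the shared ones. The share was thus lower in the set found alone for the control, GW3965 and LG268, and higher for RA, where the intervals overlapped. The RXR lists differed in length, from 940 peaks with GW3965 to 2089 with LG268, and the part of that in these shares was not tested.

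**Figure D3:**
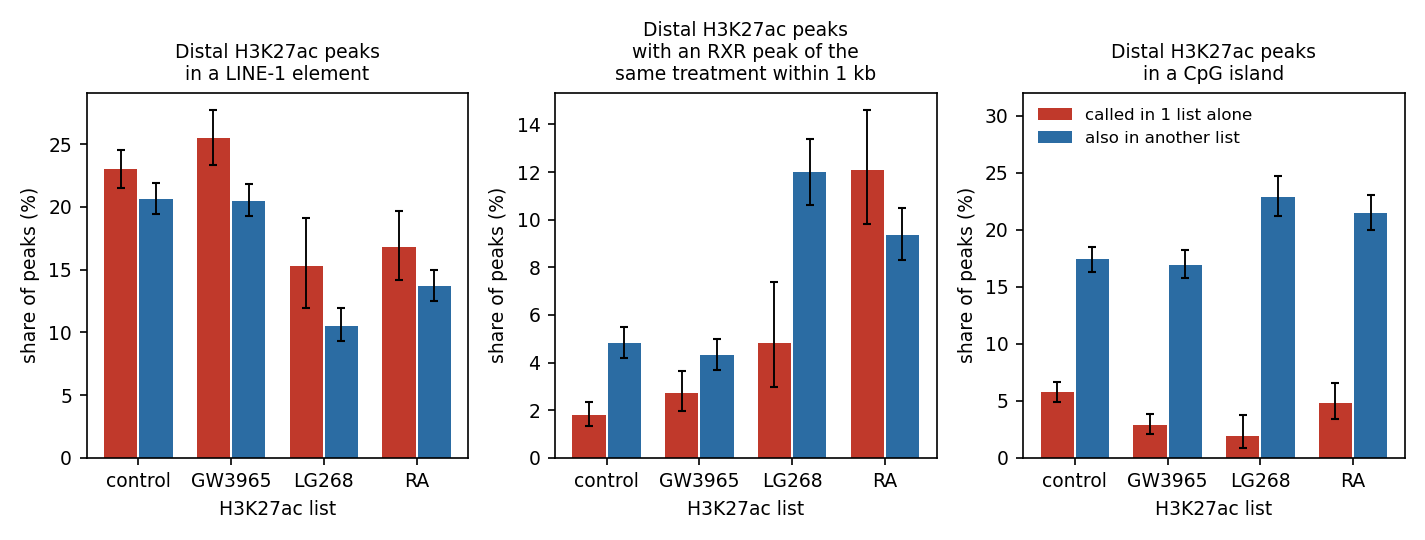
Shares (%) of distal non-LTR H3K27ac peaks in an L1 (LINE-1) element, with an RXR peak of the same treatment within 1 kb, and in a CpG island, for each list's peaks called in that list alone (red) and those also in another list (blue); error bars are exact 95% intervals for counting error. The red bar for RXR is at 2.71% with GW3965 and at 12.1% with RA, and the red bars for CpG islands lie between 1.94% and 5.74%, below the blue bar of each list.

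The 41 members with RXR belonged to 39 RXR peaks, and 9 of them overlapped the RXR peak. They were split between 24 intergenic and 17 intronic sites, 16 were within 1000 bp of another list's H3K27ac peak, and their median H3K27ac score was 4.25. For 21 of the 41 none of the other 3 ES RXR lists had a peak within 1 kb of the member, for 12 all of them did, for 5 there were 2 such lists and for 3 there was 1. RXR peaks without a control counterpart were common in the whole GW3965 RXR list. There, 694 of 940 peaks overlapped no control RXR peak, and 28 of the 41 members were near such a peak. The median RXR rank was 366 of 940, and 3 of the 39 RXR peaks were among the 100 highest. These 3 were next to 4930522O17Rik, in Abcg1 and next to Ranbp17.

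Abcg1, which exports cholesterol to high density lipoprotein, had 3 members in intron 2 of 14 around an RXR peak at chr17:31073326-31073675. That RXR peak was called in all 4 ES lists, with scores read each within its own list. It scored 63.3 in the control (rank 16), 31.1 with GW3965 (rank 19), 52.2 with LG268 (rank 42) and 52.4 with RA (rank 32). Beside it, the members scored 4.75 (chr17:31073950-31074381, rank 14013), 3.96 (chr17:31072286-31072557, rank 15610) and 2.45 (chr17:31073592-31073890, rank 17642). The member of lowest score overlapped the RXR peak. The nearest H3K27ac peak of the control, LG268 or RA list was 14087 bp away. The Abcg1 promoter had an H3K27ac peak of score 4.50 in the control (rank 17224) and 6.85 with RA (rank 8587). With GW3965 it had peaks of 4.64 (rank 14217) and 4.08 (rank 15429), while LG268 had none. So RXR was called in the intron with and without ligand, and the H3K27ac peaks beside it were in the GW3965 list alone.

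The strongest RXR peak beside a member lay near the Lexis1 start, at a site that the lists assign to 4930522O17Rik. It scored 31.4 with GW3965 (rank 18 of 940) and 45.1 in the control (rank 31 of 1089). The scores were 42.0 with LG268 (rank 59 of 2089) and 38.9 with RA (rank 59 of 1970). The member (chr4:53218893-53219245, score 5.51, rank 12535) covered the capitals of the Lexis1 sequence printed above. Next to it the GW3965 list had a second, stronger H3K27ac peak at chr4:53217147-53218805 (9.48) that overlapped a control peak at chr4:53217758-53218187 (5.75) and is therefore no member. Neither LG268 nor RA had an H3K27ac peak there, and the member lay 706 bp from the control peak.

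At Scd2, which encodes a stearoyl-CoA desaturase, the member (chr19:44267836-44268117, score 5.96, rank 11841) lay -25700 bp from the TSS. The RXR peak beside it scored 7.65 with GW3965 (rank 333), 8.20 with LG268 (rank 782) and 12.2 with RA (rank 435). The control RXR list had none there. A stronger RXR peak nearer the Scd2 TSS was in every ES list. It scored 76.8 in the control (rank 13), 39.7 with GW3965 (rank 14), 95.4 with LG268 (rank 15) and 91.8 with RA (rank 13). Control H3K27ac peaks of 5.93 and 5.35 and an RA peak of 5.03 stood close to the member, the nearest 288 bp from it. The GW3965 list also had a peak of 5.57 that overlapped the control peak of 5.93 and is therefore no member. Acetylation at this site was thus called in the control too, beside the member rather than under it.

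**Figure D4:**
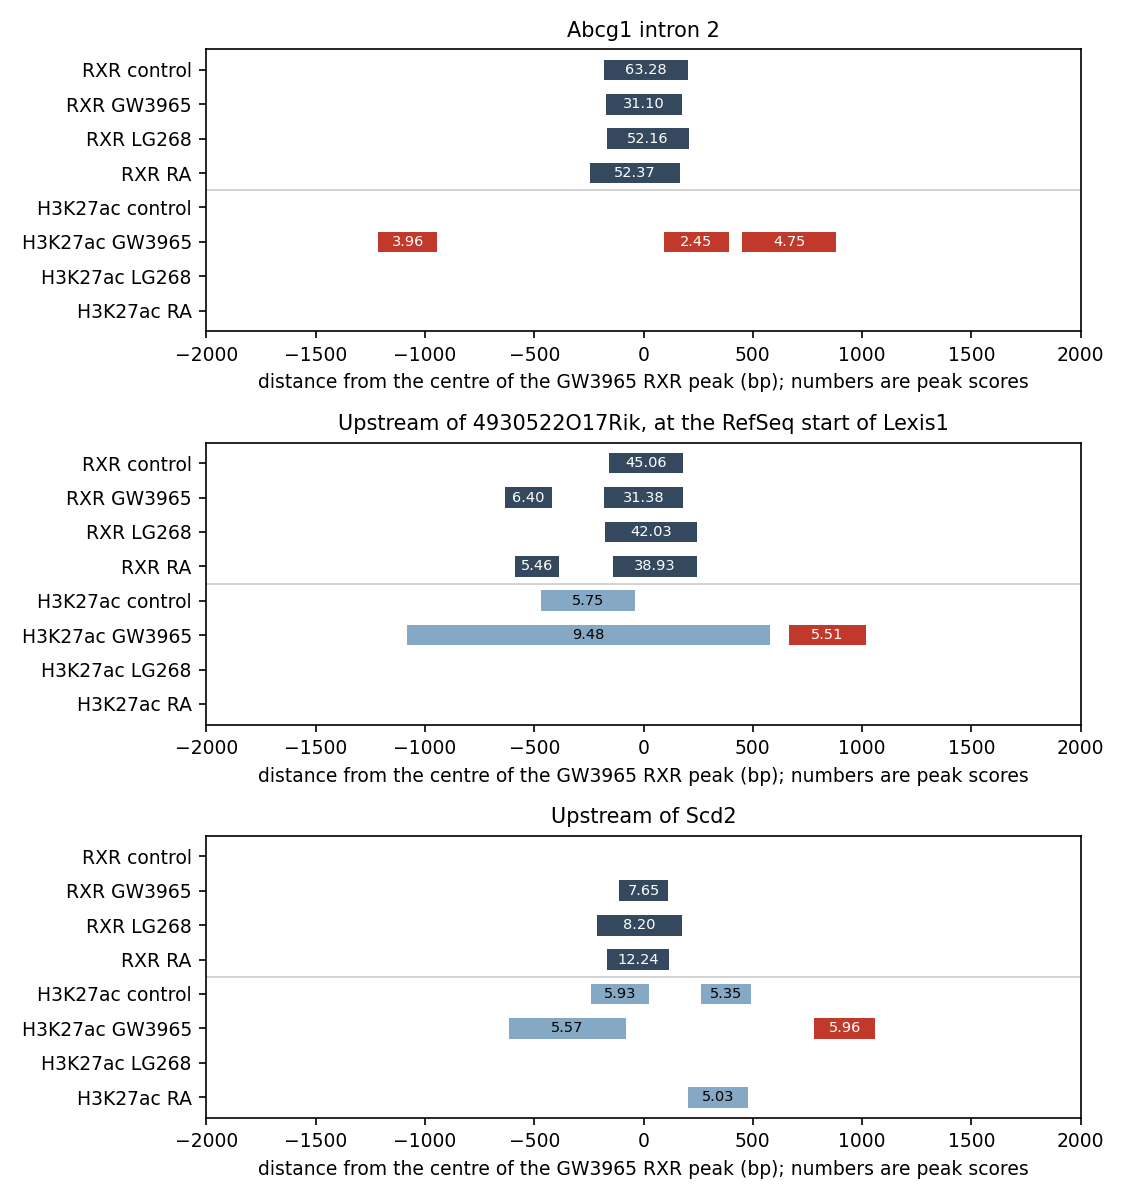
Peaks of the 4 ES RXR lists (dark) and 4 H3K27ac lists (light; members red) around 3 GW3965 RXR peaks, with distance from the RXR peak centre in bp on the x axis and the peak score on each bar. At Abcg1 only the GW3965 list has H3K27ac bars, while at Lexis1 and Scd2 control bars of 5.75, 5.93 and 5.35 stand beside the member.

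Of the other members among those with the highest RXR scores, several stood at RXR peaks common to the ES lists. Tet2, which oxidises 5-methylcytosine, had a member in intron 1 of 10 (chr3:133533000-133533239, score 3.63). Its RXR peak scored 10.9 with GW3965 (rank 153), 27.1 in the control (rank 78), 47.2 with LG268 (rank 51) and 20.3 with RA (rank 212). An RA H3K27ac peak stood 409 bp from the member. Phf21a, a chromatin reader gene of the LSD1 complex, had a member of score 8.20 overlapping an RXR peak. That peak scored 8.06 with GW3965 (rank 310), 28.8 in the control (rank 67), 28.8 with LG268 (rank 111) and 33.4 with RA (rank 85). The member was the only one of the 41 above the median score of the list. The nearest H3K27ac peak of another list was 14503 bp away.

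Other RXR peaks were shared with some lists, and each score below is read within its own list. Ier2, an immediate early gene, had RXR of 9.37 with GW3965, 11.3 with LG268 and 11.1 with RA. Fam53a had RXR of 8.90, 5.76 and 8.72 in the same lists, and its member lay 14 bp from a control H3K27ac peak. Col4a3bp, the ceramide transfer protein gene, had the 1 member of the 41 in an L1 element, with RXR of 8.80 with GW3965, 15.3 in the control and 5.87 with RA. Cyp26b1, which degrades retinoic acid, had a member in intron 3 of 6 (chr6:84583124-84583363) of score 2.00, rank 17743 of 17759, with RXR of 8.11 with GW3965 and 7.44 with RA.

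The remainder had RXR in the GW3965 list alone among the ES lists. These were Ranbp17 (RXR 18.7, member 4.46), Tmem220 (12.5, 5.98), Map4k3 (11.7, 4.25), Snord11 (11.3, 2.75) and Myb (7.79, 6.78), where the first value is the RXR score and the second the H3K27ac score. The RXR peaks next to Tmem220 and Snord11 lay in LTR elements, as did 155 of the 940 GW3965 RXR peaks (16.5%) and 27 of the 1089 control RXR peaks (2.48%). Myb, a transcription factor gene of blood progenitors, had a member that overlapped its RXR peak.

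The members' nearest genes numbered 1357, of which 1221 had 1 member, 121 had 2, 11 had 3 and 4 had 4. By the gene type in the list, 1293 members were nearest to a protein-coding gene and 198 to one typed miscRNA. Promoter H3K27ac at the nearest genes was close to that for the other distal peaks. The nearest gene had a promoter peak for 56.5% of members in the control, 49.7% with GW3965, 40.3% with LG268 and 46.3% with RA. For the other distal peaks the shares were 53.3%, 47.8%, 40.3% and 45.7%. All 4 lists had the promoter peak for 37.0% of members, and none had it for 40.3%. For members in L1 any list had one in 40.0%, against 66.4% of the other members. The nearest gene had a promoter peak in the GW3965 list alone for 16 of the 1512 members and for 57 of the 3971 other distal peaks.

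The genes with 4 members included Nr2f2, Zfp217 and 5330426P16Rik. Nr2f2, which encodes the orphan nuclear receptor COUP-TFII, had members of score 3.25 to 4.07, from 2218 to 422967 bp from its TSS. The lists assigned it 6 distal peaks in the control, 8 with GW3965, 2 with LG268 and 2 with RA. Zfp217, a zinc finger gene, had members of 4.56 to 6.95 between -10994 and -63185 bp, and 6, 9, 3 and 3 distal peaks in the same order. For 5330426P16Rik the counts were 1, 5, 0 and 1. So at Nr2f2 and Zfp217 the control also had several distal peaks, which by the rule shared no base with a member. Of the members, 2 at Nr2f2 and 1 at Zfp217 lay within 1000 bp of another list's peak.

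Among the genes with 3 members, those with few control peaks were Abcg1 (2 in the control, 3 with GW3965, none with LG268 or RA), and Mir21, Oxr1, Cdh11 and Gm597 (1 in the control, 3 with GW3965, none with LG268 or RA). All members of Cdh11, a cadherin gene, and of Gm597 lay in L1, those of Cdh11 about 637181 bp from its TSS. The microRNA gene Mir21 had members of 8.42, 3.79 and 2.48, the highest at -2316 bp within intron 11 of 11 of another transcript. Oxr1, an oxidation resistance gene, had members of 5.33, 5.20 and 4.23. The remodeller gene Chd9 had 9 distal peaks in both the control and the GW3965 list, Fgfr1 5 in both, and Mycn, a MYC family gene, 6 and 7. Zfp462 had 4 and 7. At Sall1, a zinc finger gene of pluripotent and neural cells (11 and 6), and Zfp36l1, an mRNA decay factor gene (7 and 5), the control had more distal peaks than GW3965.

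**Figure D5:**
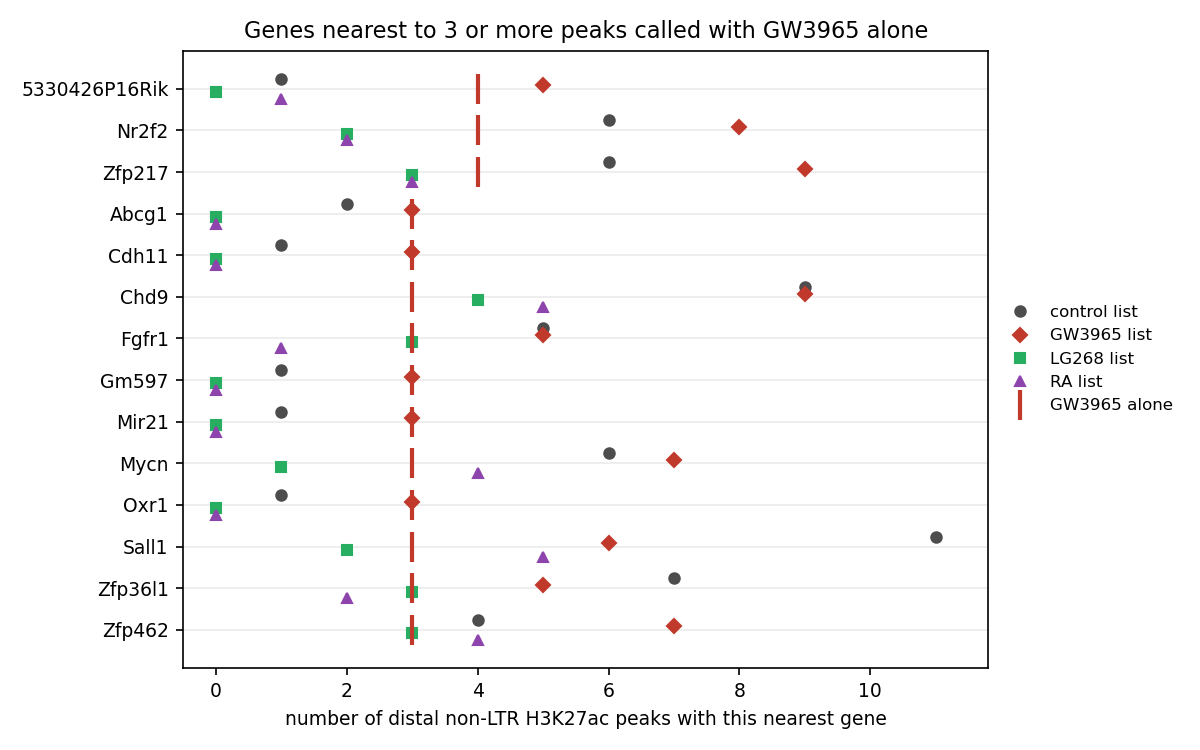
Number of distal non-LTR H3K27ac peaks per list (x axis) that have each named gene as their nearest gene, for genes nearest to 3 or more members; symbols stand for the 4 lists and the vertical red mark for the number of members. Nr2f2, Zfp217 and 5330426P16Rik have 4 members each, and at Sall1 the control symbol (11) lies beyond that of GW3965 (6).

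Members were mostly isolated. Only 204 had another member within 50 kb, and the densest group was the 4 upstream of Zfp217. Those with 2 neighbours included members at Apobec3 (8.41), a cytidine deaminase gene, and its neighbour D730005E14Rik (6.92), at Lmo2 (6.28), a cofactor of blood cell transcription, at Id3 (6.18) and at the tubulin gene Tubb2b (5.85). All of these stood within 1000 bp of a control H3K27ac peak, while the Mir21 member did not. By chromosome, the share of distal non-LTR peaks that were members ran from 22.2% on chromosome 11 to 31.6% on chromosome 16. On the X chromosome it was 30.1%, and 43 of the 65 members there were in L1, as were 128 of all 216 distal non-LTR peaks of the list on that chromosome.

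Of all 13955 genes named as nearest in the 4 H3K27ac lists, 1071 (7.67%) had a member at most 100 kb from the TSS, and 3106 (22.3%) had any distal GW3965 peak there. The LXR target list had 5 such genes of 21 (23.8%): Scd2, Abcg1, Mylip, Fasn and Elovl6. Mylip, a ubiquitin ligase of the LDL receptor, had a member of 4.35 at -83854 bp, and Fasn, the fatty acid synthase, one of 4.13 at -9704 bp (chr11:120834127-120834376) in an intron of another transcript. Elovl6, a fatty acid elongase, had one of 2.89 in intron 2 of 4. Genes of this list with any distal peak numbered 8 in the control, 10 with GW3965, 6 with LG268 and 9 with RA, and peaks found in 1 list alone were at 3, 5, 0 and 3 of them.

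The other 7 lists also had shares above 7.67%, from 15.8% for chromatin genes upward. The signalling list (LIF, WNT, FGF and TGF-beta) had 8 of 29 (27.6%). Fgfr1 and Fgfr2, receptors for FGF, had members of 4.68, 4.51 and 3.88 and of 2.57, the last in intron 2 of 17 beside an RXR peak of 7.36 that no other ES RXR list had. The ERK phosphatase gene Dusp6 had members of 4.82 and 4.53, and Spry2, an inhibitor of receptor tyrosine kinase signalling, 4.96. Id1 (5.34) and Id3 (6.18), targets of BMP that block bHLH factors, the ligand gene Wnt7b (6.98) and the WNT feedback gene Axin2 (2.89) made up the rest. Several of these stood close to a peak of another list. The gaps were 16 bp at Spry2 and 328 bp at Id3 to a control peak, and 42 bp at Id1 to an RA peak. At Fgfr1 they were 98 bp to an LG268 peak (member 4.51) and 59 bp to a control peak (member 3.88). The Dusp6, Wnt7b, Axin2 and Fgfr2 members and the Fgfr1 member of 4.68 had none within 1000 bp. In the control, distal peaks found in that list alone were at 15 of the 29 genes, against 8 with GW3965, 2 with LG268 and 5 with RA.

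Pluripotency genes had 4 of 22 (18.2%), with members of 5.73 at Klf2, 4.45 at Klf5, 3.63 at Tet2 and 3.23 at Esrrb, all of them regulators expressed in ES cells. Peaks found in the control alone were at 10 of these genes. Germ layer and neural genes had 3 of 14 (21.4%), namely the endoderm factor Foxa2 (6.11), the proneural factor Neurog1 (3.82) and the neural progenitor factor Sox1 (3.46, in its 3′ UTR), and the control alone had peaks at 8. RAR targets had 3 of 15 (20.0%), Meis2 (5.02, 5 bp from an RA peak), Zfp703 (2.39) and Cyp26b1 (2.00). Chromatin genes had 3 of 19 (15.8%), among them the acetyltransferase gene Ep300 (4.75) and the demethylase gene Kdm5b (2.88), both within 1000 bp of a control peak.

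Of the trophoblast list 3 genes were named at all, and 2 had a member. These were the keratin genes Krt8 (4.33 in intron 1 of 8, and 3.96 at -2354 bp) and Krt18 (3.23 at -2280 bp), which lie side by side on chromosome 15. No distal peak of the control, LG268 or RA list was assigned to either gene, though Krt18 had a promoter peak in the control, GW3965 and RA lists. Of the fibroblast list 4 genes were named, and Snai2 had a member of 4.35 in an L1 element. Their part in the members was not tested.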

How the data were processed

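RXR and H3K27ac ChIP-seq were deposited as 1 annotated peak list per library. Per the submitters' processing notes, BWA 0.6.0, HOMER 4.2 and MACS2 2.0.10 were used, with builds mm9 and mm10 named without a role, and per the file headers peaks were annotated on mm10. The authors deposited a score for each peak. How scores compare from one library to another is not given in the sources used here, so they were ranked within a list. The distance to the TSS, nearest gene and location class were also taken as the authors deposited them.

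Overlap was at least 1 bp, and RXR was sought within 1 kb of a member's edges. Shares have exact (Clopper-Pearson) 95% intervals. The code for overlaps and distances between peaks was tested on simulated peaks. No test compared treatments, since each ES group has 1 library. The members and the 8 gene lists were chosen with earlier results of these data known. Genes were named by a rule: nearest genes of the 15 highest members, of the 15 members with the highest GW3965 RXR score, list genes with a member at most 100 kb away, genes with 3 or more members, the 10 members with most members within 50 kb, and the 3 peaks on either side of the distance threshold. Genes named only for sequence or peak counts in marker genes were added after their values were seen. A few genes named by it are left out and not reported here.

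The alternatives changed the TSS distance, the overlap, the repeat classes, the list lengths, the score range, the RXR window and the gene window. Sequences are from RefSeq (GRCm38.p6, which is mm10). Tables were read with pandas 2.3.3 and numpy 2.4.6, intervals came from scipy 1.17.1 and plots from matplotlib 3.10.9, all under Python 3.11.15.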

Additional observations from a re-analysis of the deposited data

How the results depend on the processing

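Of 36 alternatives, 23 left their result within the limits set for a change and 13 moved it. The 1512 members became 2270 when only a 50% reciprocal overlap excluded a peak, 660 with the 4 lists cut to the 12472 highest peaks each, and 42 in the upper 50% of GW3965 scores. The 41 members with RXR became 9 with an overlap of at least 1 bp, 25 without members within 1 kb of another list's peak, and 20 with lists of equal length. Leaving out L1 members moved the median position in the list from 84.2% to 86.2% and the intron share from 38.7% to 43.1%. A promoter window of 5 kb moved the share of members whose nearest gene had a promoter peak from 59.7% to 66.7%. With a window of 10 kb the pluripotency genes fell from 4 to 1 and the LXR targets from 5 to 2. The L1 share of 25.5% became 23.0% with LTR peaks kept and 32.1% with lists of equal length. The alternatives on the L1 share, on leaving out L1 members and on leaving out peaks of the smallest width were chosen after seeing the data. The cause of each change was not tested, apart from the smaller number of peaks that a stricter rule or a shorter list leaves. Depth is unknown, so a weak peak missing from a list is not shown to be absent from those cells. No paired analysis was possible because each ES group has 1 library, and the replicate numbers of day 8 and day 16 enter no test.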

Other observations

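Of the 1512 members, 16 had a nearest gene with a promoter H3K27ac peak in the GW3965 list alone, as did 57 of the 3971 other distal peaks. The 16 members were next to 15 genes. Their scores ran from 2.62 at Slc44a3 to 6.28 at Lmo2. They included the developmental transcription factor genes Tfap2a (5.33) and Dmrt1 (5.34), and Lin28b (5.26), an RNA-binding protein gene that blocks let-7 maturation. The Tfap2a member lay in L1Md_T 142576 bp from the TSS, and the Dmrt1 member at -105194 bp in an intron of another transcript. The Lin28b member lay 203 bp from a control peak. These genes were chosen after their values were seen, and with 1 library per group the pattern has no replicate check.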
